A study of Mus musculus with 8 samples.

Results

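Gas5 and Snhg6 are noncoding genes whose transcripts carry small nucleolar RNAs (snoRNAs) in introns that splicing removes. Their levels were followed in the lenses of 2 mouse strains through all 5 probe sets that the chip annotation assigns to either gene, 3 for Gas5 and 2 for Snhg6, each kept separate. They were 2 of 8251 named genes and 5 of 12422 probe sets that are not controls. The 8 arrays measured lenses from mice 10 days old, 2 arrays for each of C57BL/6J α3Cx46 KO, C57BL/6J WT, 129SvJae α3Cx46 KO and 129SvJae WT. Both strains are inbred, and KO mice carry a targeted disruption of the gene for connexin 46 (Gja3), a subunit of the gap junction channels between lens fiber cells. The disrupting construct carries a neomycin gene with protamine sequence at its end. The study asked which transcripts differ between a strain that forms severe cataract without connexin 46 and one that is protected, and what the loss of the connexin does in each. Each sample was a pool of lenses from mice of both sexes. No source says whether the pools of a group held lenses of different animals, and a p-value here therefore reflects the variation between pools or arrays, part of which may be technical.

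Introns of snoRNA host genes are cut out and trimmed to release snoRNAs, which guide chemical modification of ribosomal RNA. The spliced exons of Gas5 hold no long reading frame, yet the RNA belongs to the terminal oligopyrimidine (TOP) class, which begins with a C followed by a run of pyrimidines and is loaded on ribosomes under control of the TOR kinase pathway. Ribosomes that meet its early stop codon send it to nonsense-mediated decay, and the RNA accumulates in cells that stop growing, which gave it the name growth arrest specific 5. In the gene table used here, both genes lie on chromosome 1, with 8 snoRNA genes inside Gas5 and 1, Snord87, inside Snhg6.

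The 5′ ends of Gas5 are shown first, because the TOP start is what places the gene in the class of growth-regulated host transcripts. RefSeq gives starts at 2 places on the plus strand, 565 bases apart, and the window of 250 bases before to 50 bases after the downstream one is printed whole, while the other windows are cut to 50 bases on each side of the start. The coordinates are those of GRCm38.p6, an assembly of the C57BL/6J genome, so the 129SvJae sequence is not shown. Capitals mark the letters CTTTC where they begin at the annotated start, and TATA where it begins 20 to 40 bases before it.
Gas5 downstream start, chr1:161034916-161035215, plus strand: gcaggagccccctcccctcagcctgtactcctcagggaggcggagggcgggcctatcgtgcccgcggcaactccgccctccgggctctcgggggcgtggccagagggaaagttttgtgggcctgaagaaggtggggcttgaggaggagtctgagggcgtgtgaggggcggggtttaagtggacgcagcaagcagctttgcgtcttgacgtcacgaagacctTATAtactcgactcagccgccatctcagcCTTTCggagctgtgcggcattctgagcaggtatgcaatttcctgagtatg
Gas5 upstream start, chr1:161034551-161034650, plus strand: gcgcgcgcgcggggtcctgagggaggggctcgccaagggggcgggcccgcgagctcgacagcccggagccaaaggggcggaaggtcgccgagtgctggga
Snhg5, chr9:88522848-88522947, minus strand: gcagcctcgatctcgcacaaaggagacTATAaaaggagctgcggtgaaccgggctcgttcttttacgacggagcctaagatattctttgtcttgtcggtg
Snhg1, chr19:8723437-8723536, plus strand: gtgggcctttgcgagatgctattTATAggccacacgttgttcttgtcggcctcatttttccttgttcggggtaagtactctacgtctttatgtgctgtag

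At the downstream start Gas5 had CTTTC as its first 5 bases on the transcribed strand, and TATA beginning 29 bases before the start. The upstream start had neither. TATA began 23 bases before the start of Snhg5 and 27 bases before that of Snhg1, the other noncoding hosts with a tested probe set. At the annotated base, neither began with C followed by at least 4 pyrimidines. Both printed sequences hold pyrimidine runs shortly after that base, so a TOP start of these genes is not excluded. Of 32851 windows of the same length, 45 (0.137%) began with CTTTC, 823 (2.51%) began with C and at least 4 pyrimidines, 1908 (5.81%) held TATA at that distance, which reads the same on both strands, and 6 (0.0183%) held both CTTTC and TATA in those places. CTTTC anywhere in the window, on either strand, was found in 18833 windows (57.3%). CTTTC is the start of Gas5 itself, so a match there was fixed in advance and its shares only describe that string. The share for the class is the 2.51% that began with C and at least 4 pyrimidines. No window of Snhg6 was printed.

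The signal of a probe set is the MAS5 signal as deposited, in arbitrary units on arrays scaled to the same trimmed mean, and signals near or under 50 lie close to background. Levels are compared between arrays for 1 probe set at a time, never between probe sets, since each has its own probes. Median signals of the arrays ran between 85.2 and 114.5, and 7637 to 8602 probe sets per array exceeded 50. The Gja3 probe set gave 448.2 and 519.8 in C57BL/6J KO against 1969.2 and 3276.0 in C57BL/6J WT lenses, and 472.8 and 445.1 in 129SvJae KO against 1101.0 and 3383.3 in 129SvJae WT lenses, so every KO array lay below every WT array. A fluidics error was logged for 1 array, C57BL/6J WT replicate 1. Of the lens fiber markers, 6 of 8 had a named probe set, and their summed signals were 188200 to 297500 in C57BL/6J and 161600 to 281000 in 129SvJae lenses. The summed markers of lens epithelium (2479 to 3028 in C57BL/6J, 2735 to 3614 in 129SvJae) and of retina, pigmented tissue, vessel, macrophage, red cell and smooth muscle also overlapped between the strains. In a whole lens, a change in the number of cells of a type and a change in RNA per cell cannot be told apart.

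The brightest Gas5 probe set, 98531_g_at, had far higher signals in C57BL/6J than in 129SvJae lenses. It gave 13296.3 and 13534.0 in C57BL/6J KO and 19106.5 and 14025.8 in C57BL/6J WT lenses, against 802.4 and 780.9 in 129SvJae KO and 882.3 and 790.1 in 129SvJae WT lenses. The group means were 13415 ± 168 in C57BL/6J KO, 16566 ± 3593 in C57BL/6J WT, 791.6 ± 15.2 in 129SvJae KO and 836.2 ± 65.2 in 129SvJae WT (SD, n = 2 each). The strains did not overlap: the lowest C57BL/6J array was 15.1-fold above the highest 129SvJae array. The log2 ratio of C57BL/6J over 129SvJae from limma was 4.19 (SE 0.14) averaged over genotypes, an 18.2-fold difference, with 4.08 (SE 0.20) in KO lenses and 4.29 (SE 0.20) in WT lenses. Both genes were chosen by their strain difference on these arrays, so these ratios are a description and no p-value is given for them. The fold is that of this probe set alone. Real-time PCR of Gas5 in the paper was also higher in C57BL/6J lenses, but at a smaller fold in both genotypes. For scale, the median ratio of all 10078 tested probe sets was 0.01, and limma called 37 of them (0.367%) different between the strains, of which 26 (0.258%) were higher in C57BL/6J. Blocked on the replicate number, limma called 58, 36 higher and 22 lower. Within the 4 pairs of arrays that share genotype and replicate number, the fold was 16.6 and 17.3 in KO and 21.7 and 17.8 in WT lenses. Without the array with the fluidics error, which held the highest Gas5 signal, the averaged ratio was 4.08.

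The second Gas5 probe set, 98530_at, was designed on the same sequence record as 98531_g_at and lay near background in 129SvJae lenses. Its signals were 254.2 and 353.5 in C57BL/6J KO and 488.5 and 365.0 in C57BL/6J WT lenses, against 20.4 and 74.2 in 129SvJae KO and 51.7 and 28.1 in 129SvJae WT lenses. The strains again did not overlap, and the lowest C57BL/6J array lay 3.43-fold above the highest 129SvJae array. The averaged log2 ratio was 3.21 (SE 0.47), a 9.24-fold difference, but 2 of the 4 129SvJae signals were under 50, so its size is imprecise. The pairs of arrays spread accordingly, at 12.5-fold and 4.76-fold in KO and 9.45-fold and 13.0-fold in WT lenses.

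The third Gas5 probe set, 101885_at, rests on another sequence record of the gene and was dim everywhere. Its signals were 93.2 and 53.9 in C57BL/6J KO and 75.2 and 45.7 in C57BL/6J WT lenses, against 8.5 and 45.0 in 129SvJae KO and 61.2 and 27.9 in 129SvJae WT lenses. The strains overlapped, and 4 of the 8 signals were under 50, 1 in C57BL/6J and 3 in 129SvJae lenses. Its averaged log2 ratio of 1.18 (SE 0.71) had the same sign as those of the other Gas5 probe sets. Of the pairs, KO replicate 1 stood apart at 11-fold, through the single 129SvJae signal of 8.5, while the other three gave 1.20-fold, 1.23-fold and 1.64-fold.

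Snhg6, the host of Snord87, was also higher in C57BL/6J lenses through its bright probe set, 96156_at. It gave 1888.9 and 1936.0 in C57BL/6J KO and 861.3 and 1369.2 in C57BL/6J WT lenses, against 373.6 and 462.8 in 129SvJae KO and 387.4 and 399.5 in 129SvJae WT lenses. The 129SvJae arrays lay close together in both genotypes, whereas the C57BL/6J KO arrays both lay above the C57BL/6J WT arrays. The group means were 1912 ± 33.3 in C57BL/6J KO, 1115 ± 359 in C57BL/6J WT, 418.2 ± 63.1 in 129SvJae KO and 393.4 ± 8.56 in 129SvJae WT lenses (SD, n = 2 each). The lowest C57BL/6J array was 1.86-fold above the highest 129SvJae array. The log2 ratio of the strains was 1.83 (SE 0.19) averaged over genotypes, a 3.56-fold difference, with 2.20 (SE 0.27) in KO and 1.46 (SE 0.27) in WT lenses. The pairs gave 5.06-fold and 4.18-fold in KO and 2.22-fold and 3.43-fold in WT lenses. Without C57BL/6J WT replicate 1, the lowest C57BL/6J array and the one with the fluidics error, the averaged ratio was 2.0.

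The dim Snhg6 probe set, 161635_f_at, carries the suffix that the manufacturer gives to sets whose probes can also match related sequences. Its signals were 99.5 and 64.8 in C57BL/6J KO and 167.6 and 75.9 in C57BL/6J WT lenses, against 55.0 and 29.2 in 129SvJae KO and 48.2 and 89.7 in 129SvJae WT lenses. The strains overlapped, and 2 signals, both in 129SvJae lenses, were under 50. The averaged log2 ratio was 0.89 (SE 0.54), and WT replicate 2 ran the other way at 0.846-fold, against 1.81-fold, 2.22-fold and 3.48-fold in the other pairs. Over both genes, then, all 5 averaged ratios were above 0, and 3 of 5 probe sets, the bright ones and 98530_at, did not overlap between the strains. Among all tested probe sets, 297 of 10078 (2.95%) had all 4 C57BL/6J arrays above all 4 129SvJae arrays. That share is given for scale only. Both genes were chosen by their strain difference on these arrays, so the tally adds no evidence beyond that choice.

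**Figure D1:**
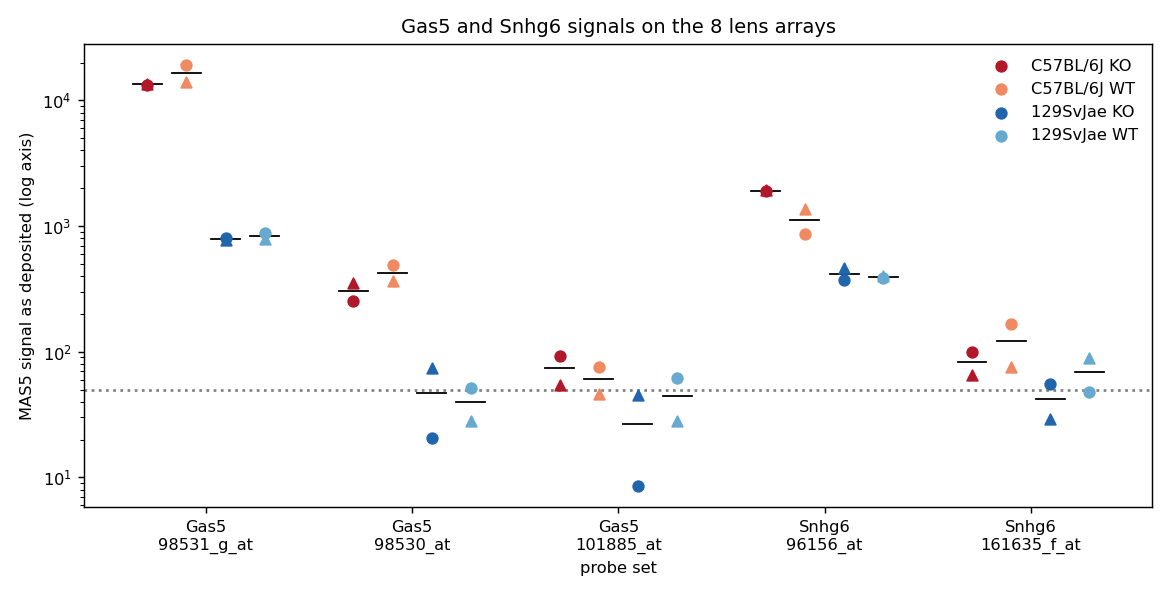
Signals of the 3 Gas5 and 2 Snhg6 probe sets (x axis) on the 8 arrays, as deposited MAS5 signals on a log axis. Circles are replicate 1 and triangles replicate 2, bars are group means of 2 arrays, and the dotted line marks a signal of 50. The C57BL/6J arrays of 98531_g_at sit between 13296.3 and 19106.5, and its 129SvJae arrays between 780.9 and 882.3.

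**Figure D2:**
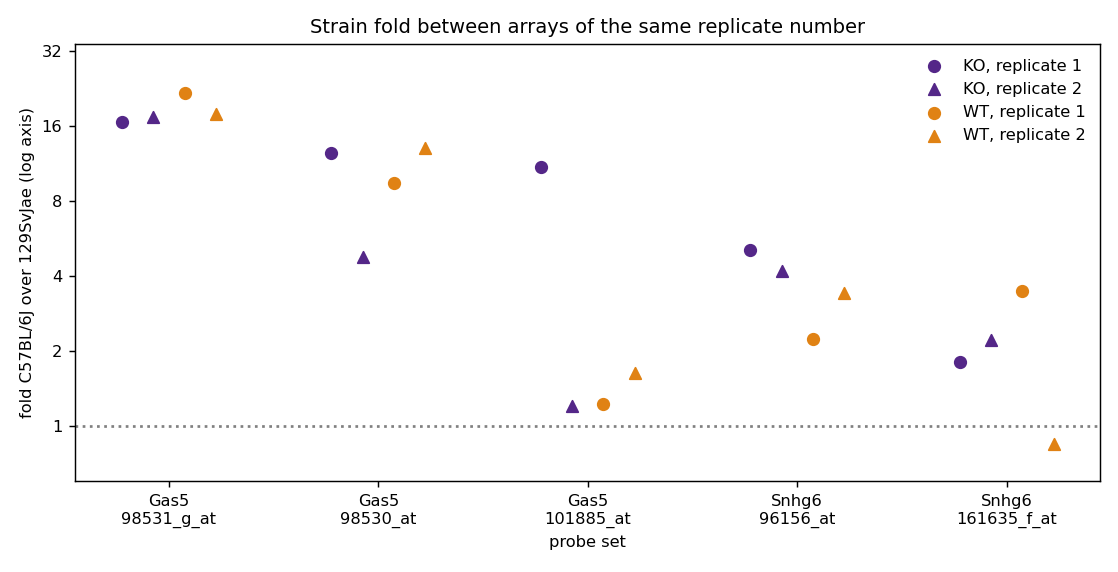
Fold of C57BL/6J over 129SvJae between arrays of the same genotype and replicate number, on a log axis, for each Gas5 and Snhg6 probe set. Purple points are KO and orange points WT lenses, and the dotted line marks equal signals. The 4 folds of 98531_g_at lie between 16.6 and 21.7, and 1 point, of 161635_f_at, lies below the line.

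The genotype was not used to choose the genes, so the effect of the α3Cx46 KO on them was tested. No probe set of Gas5 or Snhg6 passed: 0 of 20 tests with limma (the KO effect in C57BL/6J, in 129SvJae and averaged, and the difference between the strains in that effect, for 5 probe sets) had an adjusted p under 0.05. Averaged over strains, limma called 2 of all 10078 probe sets (0.0198%), and 307 (3.05%) had an unadjusted p under 0.05. In C57BL/6J lenses it called 1 (0.00992%), in 129SvJae lenses 0 (0%, with 314, or 3.12%, at an unadjusted p under 0.05), and for the difference between strains 0 (0%, with 213, or 2.11%). With 2 arrays a group, what the intervals allow is therefore given for each gene.

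For Gas5 98531_g_at the averaged log2 ratio of KO over WT was -0.18 (95% interval -0.49 to 0.13, limma adjusted p = 0.998). It was -0.29 (-0.72 to 0.15) in C57BL/6J and -0.08 (-0.51 to 0.36) in 129SvJae lenses, both with an adjusted p of 1 by limma. For this probe set, the interval in 129SvJae lenses thus ran from a fall to 0.701-fold to a rise to 1.28-fold. It reflects the variation between pools or arrays, which may leave out that between animals. The pairs of arrays gave 0.696-fold and 0.965-fold in C57BL/6J and 0.909-fold and 0.988-fold in 129SvJae lenses, all below 1. The strain ratio differed between KO and WT lenses by -0.21 (-0.83 to 0.41, limma adjusted p = 1), so on the log2 scale the interval of that difference was narrow beside the ratio of 4.19 itself.

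For Snhg6 96156_at the averaged log2 ratio of KO over WT was 0.45 (95% interval 0.03 to 0.87), with an unadjusted p of 0.0371 and an adjusted p of 0.998 by limma. In C57BL/6J lenses it was 0.82 (0.23 to 1.41), or 1.76-fold, with an unadjusted p of 0.0104 and an adjusted p of 1 by limma. All tested probe sets held 233 (2.31%) at an unadjusted p under 0.05 in that contrast. Both C57BL/6J KO arrays lay above both C57BL/6J WT arrays, as did those of 1370 of 10078 probe sets (13.6%), and the pairs gave 2.19-fold and 1.41-fold. In 129SvJae lenses the ratio was 0.08 (-0.51 to 0.67), with pairs of 0.964-fold and 1.16-fold. The difference between the strains in the KO effect was 0.74 (-0.10 to 1.57, unadjusted p = 0.0788, limma adjusted p = 1), so it did not pass the test. Leaving out C57BL/6J WT replicate 1 brought the KO effect in C57BL/6J lenses to 0.48 and the difference between the strains to 0.40. The ratio of 3′ to 5′ signal of Actb, a sign of RNA quality, was 1.37 and 1.21 in C57BL/6J KO against 2.02 and 1.45 in C57BL/6J WT lenses, and 1.33 and 1.42 in 129SvJae KO against 3.10 and 1.78 in 129SvJae WT lenses. The Actb ratio was lower on every KO array than on every WT array. For Gapdh the ratio was 0.978 and 0.965 in C57BL/6J KO against 1.22 and 1.04 in C57BL/6J WT lenses. In 129SvJae lenses it was 1.09 and 0.903 in KO against 1.28 and 0.9995 in WT, so there the genotypes overlapped. The part of RNA quality in the Snhg6 values was not tested.

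The dim probe sets had intervals too wide to place a KO effect. Averaged over strains, the log2 ratio of KO over WT was -0.23 (-1.24 to 0.78) for Gas5 98530_at, -0.40 (-1.94 to 1.13) for Gas5 101885_at and -0.60 (-1.76 to 0.55) for Snhg6 161635_f_at, each with a limma adjusted p of 0.998. The dim Snhg6 probe set therefore had the opposite sign to the bright one.

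**Figure D3:**
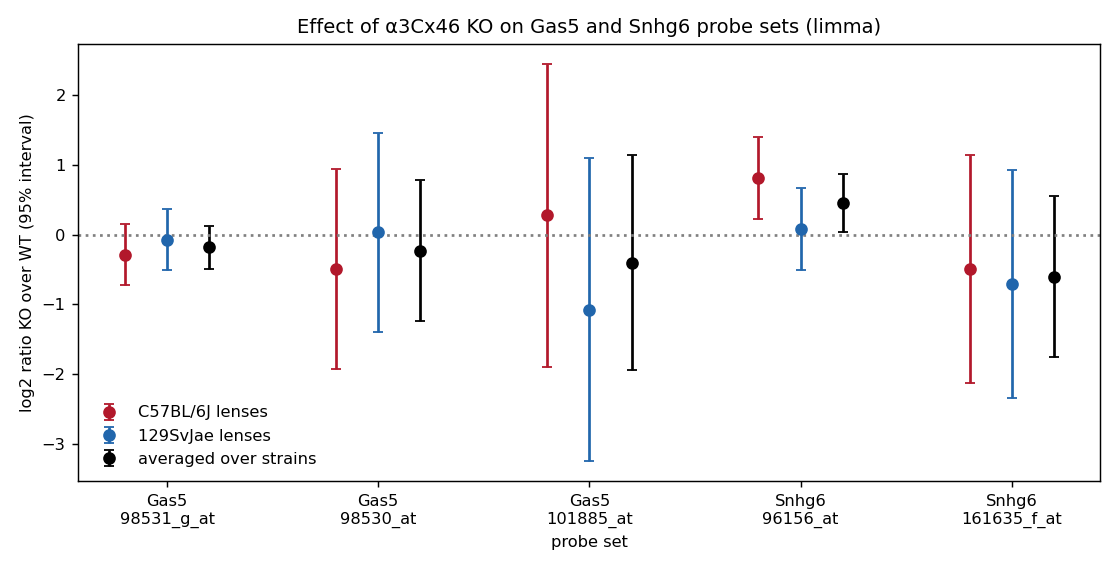
Log2 ratio of KO over WT (y axis) of the 5 probe sets from limma, in C57BL/6J lenses (red), 129SvJae lenses (blue) and averaged over strains (black), with 95% intervals from 8 arrays. No adjusted p was under 0.05. The interval of Snhg6 96156_at in C57BL/6J lenses, 0.23 to 1.41, lies above 0.

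The other genes of the pathways around these hosts were tested by limma over all probe sets, of which 0.367% were called between the strains. At that share, a list of this size will often hold no call. With 2 arrays a group, a list without a call is not shown to be unchanged. Of 16 noncoding snoRNA hosts listed besides Gas5 and Snhg6, 3 had a named probe set and 2 were tested. Snhg1 gave 327.4 and 496.8 in C57BL/6J KO and 683.6 and 550.7 in C57BL/6J WT lenses, against 394.6 and 817.0 in 129SvJae KO and 701.3 and 589.7 in 129SvJae WT lenses. Its strains overlapped, with a log2 ratio of -0.28 (SE 0.25, limma adjusted p = 0.927). Snhg5 gave 119.7 and 111.3 in C57BL/6J KO and 211.8 and 97.8 in C57BL/6J WT lenses, against 113.8 and 160.8 in 129SvJae KO and 106.2 and 102.5 in 129SvJae WT lenses. It overlapped as well, with a ratio of 0.12 (SE 0.39, limma adjusted p = 0.976). Snhg11 was not tested, with group means under 50 in all 4 groups and 1 signal above it, 68.4 in 129SvJae KO lenses.

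Protein-coding hosts, among them genes of ribosomal proteins and translation factors with a TOP start, gave 0 calls among 28 tested probe sets of 22 genes, with 13 ratios above 0, 15 below and a median of -0.02. Those with the smallest adjusted p by limma were Rpsa, a protein of the small ribosomal subunit, at -0.35 (SE 0.13, adjusted p = 0.555), and Taf1d, of RNA polymerase I transcription, at -0.62 (SE 0.26, adjusted p = 0.626). Rpl7a and Rps3, ribosomal proteins, had -0.20 (SE 0.16) and -0.16 (SE 0.13), both with an adjusted p of 0.911 by limma. Signals of Rps3 were 12458.4 to 15290.8 in C57BL/6J and 13128.2 to 16645.4 in 129SvJae lenses, so the strains overlapped.

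The proteins that bind snoRNAs and build snoRNPs gave 0 calls among 16 probe sets of 14 genes, 8 ratios above 0 and 8 below, with a median of 0.01. Ruvbl1 and Ruvbl2, the paired ATPases of snoRNP assembly, had -0.24 (SE 0.19, adjusted p = 0.897) and 0.36 (SE 0.35, adjusted p = 0.931) by limma. Nonsense-mediated decay, which degrades the spliced Gas5 RNA, was represented by 4 tested probe sets of 3 genes out of 17 listed, with 0 calls and a median of -0.08. Pnrc2, which links the decay machinery to decapping, had 0.21 (SE 0.18), and Smg5, which acts on the core factor Upf1, had -0.38 (SE 0.51).

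The list for the control of TOP mRNA translation by TOR held the only call among the related lists. Of its 20 tested probe sets of 13 genes 1 was called (background 0.367%), 12 ratios lay above 0 and 8 below, and the median was 0.18. Tsc2, the tuberin subunit of the complex that holds TOR complex activity down, gave 1033.5 and 1469.0 in C57BL/6J KO and 1245.0 and 1227.3 in C57BL/6J WT lenses through 97953_g_at, against 689.8 and 665.1 in 129SvJae KO and 527.8 and 422.7 in 129SvJae WT lenses. The strains did not overlap, as for 297 of 10078 tested probe sets (2.95%) with C57BL/6J higher. The log2 ratio was 1.13 (SE 0.18, limma adjusted p = 0.0127). A second Tsc2 probe set, 97951_s_at, had 0.94 (SE 0.19, adjusted p = 0.0556) by limma, and a dim one, 97952_at, had 0.30 (SE 0.54, adjusted p = 0.958). Tsc2 had been named by the study from these same arrays, so it is not independent evidence about the list. Cnbp, which binds the pyrimidine tract of TOP mRNAs, had -0.53 (SE 0.16, adjusted p = 0.349), and Eif4ebp2, a repressor of translation that TOR inactivates, 0.50 (SE 0.23, adjusted p = 0.715) by limma. The call of Tsc2 was lost in 5 of the 8 fits that leave out 1 array, those without either 129SvJae KO array, without either C57BL/6J WT array and without C57BL/6J KO replicate 2, and also by the methods' t-test, with no variance trend and with arrays centred on the median.

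Growth arrest genes, the class from which Gas5 has its name, gave 0 calls among 20 probe sets of 16 genes, with 11 ratios above 0, 9 below and a median of 0.12. Gadd45a, induced by growth arrest and DNA damage, gave 1746.7 and 1992.7 in C57BL/6J KO and 2449.5 and 1813.1 in C57BL/6J WT lenses, against 3518.3 and 3326.4 in 129SvJae KO and 2864.6 and 3718.6 in 129SvJae WT lenses. Its log2 ratio of -0.75 (SE 0.16, limma adjusted p = 0.0703), with C57BL/6J below 129SvJae, did not pass the test. Blocked on the replicate number, the limma fit made 3 calls among the related lists, both brighter Tsc2 probe sets (adjusted p = 0.011 and 0.0266) and Gadd45a (adjusted p = 0.0429). Pmp22 (also known as Gas3), a myelin protein, had 0.34 (SE 0.16, adjusted p = 0.725), Gadd45b 0.30 (SE 0.15, adjusted p = 0.766) and Gas6, a ligand of TAM receptors, 0.53 (SE 0.27, adjusted p = 0.773) by limma.

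Human GAS5 RNA can bind the glucocorticoid receptor in place of its DNA element, so the receptor and its targets were listed as well. The probe set of the receptor gene, Nr3c1, was not tested, with signals of 7.3 to 48.1, under 50 on every array. The list gave 0 calls among 11 probe sets of 10 genes, with 4 ratios above 0, 7 below and a median of -0.03. Dusp1, a phosphatase induced by glucocorticoids, had 0.58 (SE 0.24, adjusted p = 0.613) by limma. Klf9 had 0.99 (SE 0.59, adjusted p = 0.852) through a dim probe set and -0.23 (SE 0.32, adjusted p = 0.953) through a brighter one. Tsc22d3, known as GILZ, had -0.83 (SE 0.80, adjusted p = 0.931). Over all 7 lists, 110 probe sets of 89 genes were tested. Between the strains, 1 was called higher and 0 lower (background 0.367%). For the KO effect averaged over strains, 0 were called (background 0.0198%). Among the 7 lists, the medians of the KO effect ran from -0.21 for the glucocorticoid list to 0.01 for the TOR list, beside -0.02 for all probe sets.

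**Figure D4:**
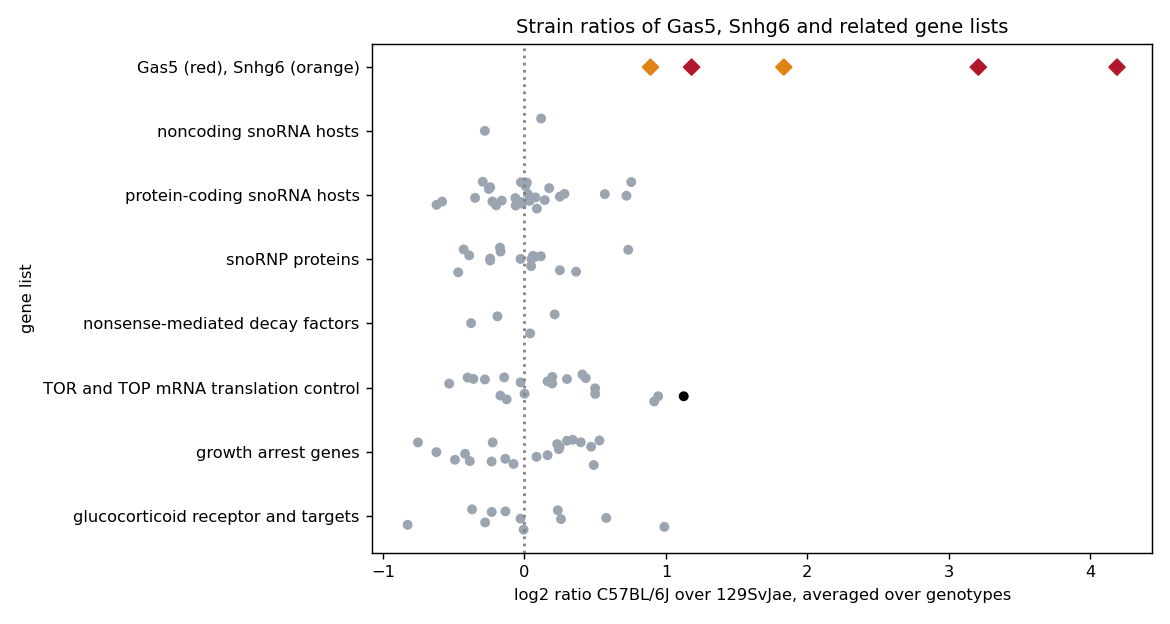
Log2 ratio of C57BL/6J over 129SvJae averaged over genotypes (x axis) for the Gas5 and Snhg6 probe sets (diamonds) and for each tested probe set of 7 related lists (dots, spread vertically so that they can be seen). The black dot is Tsc2 97953_g_at, called by limma, and gray dots are not called. The lists lie between -0.83 and 1.13, and Gas5 98531_g_at lies at 4.19.

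The protein-coding genes next to Gas5 and Snhg6 on chromosome 1, taken 10 on each side in the order of the gene table, were read for the same strain ratio. Around Gas5, 8 of 20 had a named probe set and 5 were tested, with 0 called, 4 ratios above 0, 1 below and a median of 0.31. Zbtb37, a zinc finger protein gene that overlaps Gas5 in that table, had signals of 57.7 to 155.4 in C57BL/6J and 50.9 to 172.5 in 129SvJae lenses. Its ratio was 0.31 (SE 0.49, limma adjusted p = 0.958), so the strains overlapped at the neighbouring gene. Mrps14, of the mitochondrial ribosome, had 0.34 (SE 0.18, adjusted p = 0.773), Rabgap1l 0.31 (SE 0.54), Tnfsf4 0.20 (SE 0.76) and Cacybp -0.08 (SE 0.23) by limma. Around Snhg6, 5 of 20 had a named probe set and all 5 were tested, with 0 called, 2 ratios above 0, 3 below and a median of -0.05. They were Arfgef1 at -0.47 (SE 0.20, limma adjusted p = 0.626), Mybl1 at 0.64 (SE 0.67), Cops5 at -0.11 (SE 0.16), Slco5a1 at 0.09 (SE 0.43) and Rrs1 at -0.05 (SE 0.91). Mcmdc2, which overlaps Snhg6, had no named probe set. Without strand and probe sequence, the transcript that a probe set reads where genes overlap cannot be told from the symbol alone.

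**Figure D5:**
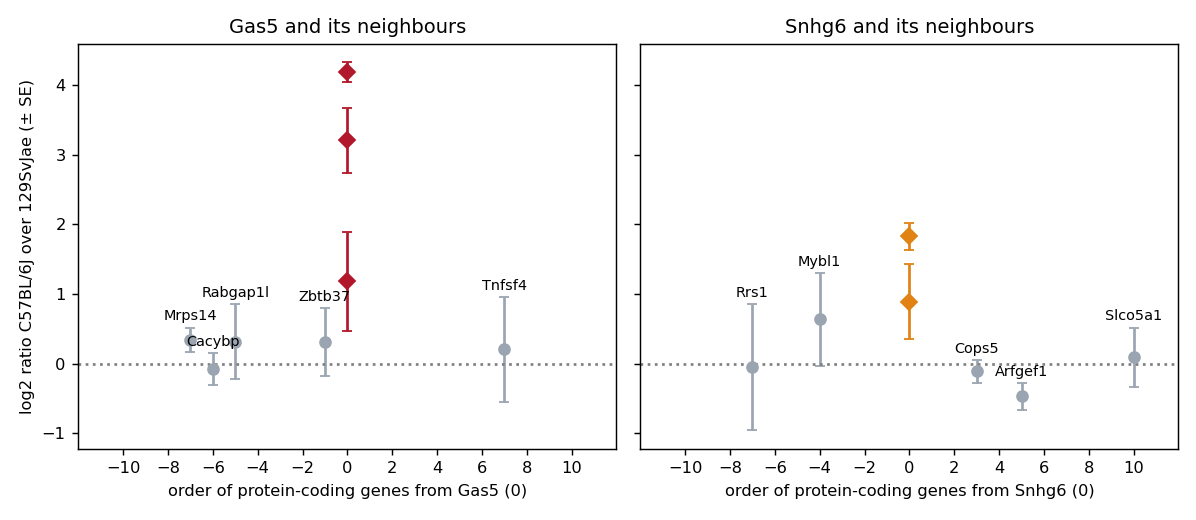
Log2 ratio of C57BL/6J over 129SvJae averaged over genotypes, with its SE from limma on 8 arrays, for Gas5 and Snhg6 (diamonds, at 0) and their tested protein-coding neighbours (gray dots). The x axis counts protein-coding genes along chromosome 1 from each host, not distance. The neighbours lie between -0.47 and 0.64.

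The shape across the 8 arrays was set against that of 8919 tested probe sets with 1 gene symbol, as a description. The arrays of a strain share both the strain and its genotypes, so a high Pearson r is largely a shared difference between the strains. With Gas5 98531_g_at, log2 signals correlated at 0.95 for 98530_at and 0.596 for 101885_at of the same gene, and at 0.909 for Snhg6 96156_at and 0.661 for Snhg6 161635_f_at. The genes most like it were Pla2g12a, a secreted phospholipase, and Gatad2a, of the NuRD repressor complex, Col6a3, a collagen VI chain, AI506816, and Strap, an adaptor of growth factor receptor signalling (r between 0.976 and 0.981). Pla2g12a, for example, gave 3175.4 to 3446.2 in C57BL/6J and 718.6 to 1153.3 in 129SvJae lenses. Those least like it were Hebp1, a heme-binding protein, Pgk1 and Pgam2, enzymes of glycolysis, Tpm4, a tropomyosin, and Plg through a dim probe set (r between -0.984 and -0.975). Pgk1 gave 2043.0 to 2647.9 in C57BL/6J and 4519.0 to 5602.5 in 129SvJae lenses.

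Snhg6 96156_at had mostly other neighbours in shape. The highest r were those of Emc10, of the membrane protein complex of the endoplasmic reticulum (0.977), Epb41l4a (0.952), Acsl5 (0.949), Ndrg4 (0.947) and Gatad2a (0.946), which stood in both lists. The lowest were those of Cox6a2, a cytochrome c oxidase subunit (-0.971), Bok, a BCL2 family protein (-0.967), 1810058I24Rik (-0.962), Eif2s2, the beta subunit of translation initiation factor eIF2 (-0.955), and Plg (-0.948). Emc10 gave 623.2 to 711.4 in C57BL/6J and 396.5 to 452.3 in 129SvJae lenses, and Eif2s2 gave 102.2 to 181.8 in C57BL/6J and 273.2 to 352.3 in 129SvJae lenses. Its own dim probe set, 161635_f_at, correlated with it at 0.414, below both Gas5 98530_at (0.863) and Gas5 101885_at (0.577).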

How the data were processed

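The authors pooled lenses, hybridized biotin-labeled cRNA of each of 8 samples to MG-U74Av2 chips and summarized probe sets in Affymetrix Microarray Suite (MAS5). The deposited intensity values are linear signals that the authors scaled to a mean of 250 (after trimming 2% at each end, the mean was 250.2 throughout). Groups and replicate numbers come from the labels. The chip holds 12488 probe sets. Without 66 controls these were 12422, among which 10833 have 1 gene symbol, 396 several and 1193 none. The 10078 whose mean exceeded 50 in a group, after the methods, were tested. Symbols were brought up to date with a GRCm38.p6 gene table, which served for names and gene order only because no source names a build for the chip.

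Signals were rescaled to a trimmed mean of 250, the 1 signal not above 0 became 1, and log2 values entered 1 fit with limma 3.58.1 (R 4.3.3): 4 group means, a variance trend, 4 residual and 9.17 prior degrees of freedom, and Benjamini-Hochberg adjustment over all tested probe sets with a call under 0.05. Intervals are at the 95% level. The fit was tested on simulated signals. Tables were made with pandas 2.3.3. Arrays have no read depth, and precision depends on how far a signal lies above background and on how many arrays there are.

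The replicate numbers pair the arrays, since same-numbered arrays deviated together from their group means (correlations of 0.129 to 0.206 over 6 pairs of groups), and replicate 1 of all 4 groups was scanned in 1 of 3 sessions. The members, the lists, the tests and the alternatives were chosen with earlier results of these data known. Named genes are all Gas5 and Snhg6 probe sets, called list members, up to 4 per list and 5 neighbours per gene with the smallest adjusted p between strains, and the 5 probe sets with the highest and the 5 with the lowest Pearson r. Other genes named, and other probe sets of these genes, were added after their values were seen. The alternatives were 12 other settings, plus fits that omit 1 of the 8 arrays at a time. Detection calls and probe-level data were not used here.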

Additional observations from a re-analysis of the deposited data

How the results depend on the processing

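No KO effect or strain difference in it was called for a Gas5 or Snhg6 probe set under any alternative run, and the KO effect gave 0 calls among the related lists throughout. The averaged strain ratio was 4.14 to 4.19 for Gas5 98531_g_at and 1.76 to 1.85 for Snhg6 96156_at under the other settings, and 4.08 to 4.30 and 1.67 to 2.0 with 1 array left out. The averaged KO effect, with 1 array left out, was -0.29 to -0.07 for Gas5 98531_g_at and 0.28 to 0.62 for Snhg6 96156_at, and the difference between strains was 0.40 to 1.07 for Snhg6 96156_at and -0.43 to 0.013 for Gas5 98531_g_at. A lone array left in a group is assumed to vary like the others. The methods' t-test was not run for the difference between strains, and Gas5 101885_at has no value where a mean above 100 is required.

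With the replicate number as a block, which follows the possible pairing of the arrays, the averaged KO effects are the same by construction (-0.18 for Gas5 98531_g_at and 0.45 for Snhg6 96156_at), with a limma adjusted p of 0.919 for both. Over all probe sets the block moved the averaged strain calls to 58, against 37 without it, those in WT lenses to 16, against 7, and the KO calls in C57BL/6J lenses to 0, against 1. Among the related lists the 1 strain call became 3 with the replicate block, 2 with an offset of 16, and 0 with arrays centred on the median, without a variance trend and with the methods' t-test, and it ran from 0 to 3 with 1 array left out (3 without 129SvJae WT replicate 1). Averaged strain calls over all probe sets became 1 when no variance trend was fitted and 86 when scan sessions were blocked, a fit in which 129SvJae WT replicate 2, the sole array of its session, drops out.

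Signs turned only for values whose 95% interval held 0. When scan sessions were blocked, the KO effect in 129SvJae lenses was 0.18 for Snhg6 161635_f_at, -0.067 for Snhg6 96156_at and -0.73 for Gas5 98530_at, the difference between strains was -0.67 for Snhg6 161635_f_at and 0.24 for Gas5 98530_at, and the strain ratio of Gas5 101885_at in WT lenses was -0.21. With signals under 50 set to 50, the averaged KO effect of Gas5 101885_at was 0.032 and the difference between strains of Snhg6 161635_f_at was -0.14. With arrays centred on the median, the KO effect of Gas5 98531_g_at in 129SvJae lenses was 0.066. With 1 array left out, the averaged KO effect ran from -1.0 to 0.20 for Gas5 101885_at and from -0.70 to 0.23 for Gas5 98530_at. In C57BL/6J lenses it ran from -0.12 to 0.67 for Gas5 101885_at and from -1.06 to 0.081 for Snhg6 161635_f_at. In 129SvJae lenses it ran from -2.28 to 0.12 for Gas5 101885_at, from -0.90 to 0.96 for Gas5 98530_at, from -0.16 to 0.003 for Gas5 98531_g_at and from -0.075 to 0.23 for Snhg6 96156_at. The difference between strains ran from -0.35 to 0.80 for Snhg6 161635_f_at and from -1.46 to 0.41 for Gas5 98530_at, and the strain ratio of Gas5 101885_at in WT lenses from -0.062 to 1.07. The cause was not tested. Signals near background limit the 3 dim probe sets, and 2 arrays a group limit every KO effect.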
